A study of Mus musculus with 6 samples.

Results

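The 10 genes described here in mouse liver RNA-seq were 8 immediate early genes (Fos, Jun, Junb, Egr1, Atf3, Ier2, Btg2 and Dusp1) and the metallothionein genes Mt1 and Mt2. They were chosen by symbol as genes that react to tissue handling and stress, and all 10 were found among 43346 gene IDs. Livers came from C57BL6 mice aged 3 months. A set of 3 libraries is labelled DKO, a double knockout of β-catenin (Ctnnb1) and γ-catenin (Jup) restricted to hepatocytes, and another 3 are Control. The labels name neither the Cre driver nor the alleles that the Control mice carried, and they do not say whether each library came from its own animal, so the spread between libraries may be technical.

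Immediate early genes are switched on within minutes of a stimulus by factors that are already present in the cell, without new protein synthesis. Kinases of the MAPK family and cyclic AMP signalling act on serum response factor, its partners and CREB, which sit on the promoters of these genes. Fos, Jun, Junb, Egr1 and Atf3 encode transcription factors. Ier2 encodes a small nuclear protein, Btg2 a regulator of mRNA decay and cell growth, and Dusp1 a phosphatase that switches MAP kinases off again. Metallothioneins are small cysteine-rich proteins that bind zinc and copper. In liver their genes are induced by zinc through the factor MTF1, and also by glucocorticoids and inflammation. Dissection, anaesthesia and fasting are all known to move these genes, so they are often read as a trace of how a tissue was taken.

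The DKO-labelled libraries 1, 2 and 3 held 309731, 525037 and 1491237 reads in genes, against 12320487 to 15869639 in the Control libraries. Alb, the main secreted hepatocyte protein, took 0.0933% to 3.08% of gene reads in DKO replicates 1 to 3 and 6.58% to 7.66% in Control. Mitochondrial transcripts took 6.27% to 62.7% in the DKO-labelled libraries and 6.34% to 6.57% in Control. Ctnnb1 had 0, 52 and 65 reads in DKO replicates 1 to 3, against 2945, 2896 and 2650 in Control (log2 fold change -2.26, adjusted p = 0.171), and Jup had 6, 1 and 11, against 339, 270 and 196 (-1.68, adjusted p = 0.0847). Neither targeted transcript passed the threshold, and exons outside a deleted part would still be counted, so every direction below is between libraries as labelled. Because the DKO-labelled libraries were shallow and poor in liver transcripts, each member is given in reads as well as in CPM (counts per 1e6 gene reads after TMM scaling). In whole liver, fewer cells of a type and less RNA per cell cannot be told apart.

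In the GENCODE annotation of GRCm38, Mt2 (ENSMUSG00000031762) lies at chr8:94172664-94173568 and Mt1 (ENSMUSG00000031765) at chr8:94179082-94180327, both on the plus strand. Dusp1 (ENSMUSG00000024190) lies at chr17:26505590-26562128 and Btg2 (ENSMUSG00000020423) at chr1:134075170-134079120, on the minus strand. Junb (ENSMUSG00000052837) lies at chr8:84974484-84978718 and Ier2 (ENSMUSG00000053560) at chr8:84661331-84662852, also on the minus strand.

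Control replicate 1 stood apart from Control replicates 2 and 3 in most members. Mt2 had 9 reads in Control replicate 1, 388 in replicate 2 and 288 in replicate 3. Mt1 had 197, 1201 and 1003 reads, and Dusp1 had 659, 2395 and 2035, in the same order of libraries. These 3 genes were thus low in Control replicate 1 and close to each other in the other Control libraries. Egr1 went the other way, with 2013 reads in Control replicate 1, 513 in replicate 2 and 489 in replicate 3. Junb had 989, 483 and 442 reads and Btg2 had 818, 380 and 307, so both were also highest in Control replicate 1.

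After scaling, the Mt2 level was 0.687, 35.4 and 29.9 CPM in Control replicates 1, 2 and 3. The ratio of replicate 1 to replicate 2 was 0.0194 (95% exact binomial interval 0.00882 to 0.0373), and that of replicate 2 to replicate 3 was 1.18 (1.01 to 1.38). Intervals here and below cover counting error only. For Mt1 the same ratios were 0.137 (0.118 to 0.160) and 1.05 (0.965 to 1.14), from levels of 15.04, 109.5 and 104.2 CPM. The 2 metallothionein genes, neighbours on chromosome 8, were therefore low together in the same library. Dusp1, at 50.3, 218.3 and 211.5 CPM, gave ratios of 0.230 (0.211 to 0.251) and 1.03 (0.973 to 1.10). Egr1, at 153.6, 46.8 and 50.8 CPM, gave 3.29 (2.98 to 3.63) and 0.920 (0.811 to 1.04). For these 4 genes the gap between replicate 1 and replicate 2 lay far outside counting error, while replicates 2 and 3 differed by little or by nothing that counting error could resolve.

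Junb, Btg2, Jun and Ier2 had smaller ratios among the Control libraries. Junb was at 75.5, 44.0 and 45.9 CPM, and its ratio of replicate 1 to replicate 2 was 1.71 (1.54 to 1.92). Btg2 was at 62.4, 34.6 and 31.9 CPM, a ratio of 1.80 (1.59 to 2.04). Jun, the partner of Fos in the AP-1 factor, was lowest in replicate 1, at 40.5, 59.2 and 62.7 CPM, a ratio of 0.685 (0.610 to 0.770). So the AP-1 subunit genes Jun and Junb lay on opposite sides in Control replicate 1. Ier2 was level at 37.2, 34.1 and 37.5 CPM. Fos had 24, 11 and 7 reads and Atf3 had 16, 0 and 4, which places both near the lower limit of detection, and for Fos the interval of the ratio of replicate 1 to replicate 2 (0.862 to 4.13) included equality, while that of replicate 1 to replicate 3 (2.52, 1.05 to 6.92) did not.

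**Figure D1:**
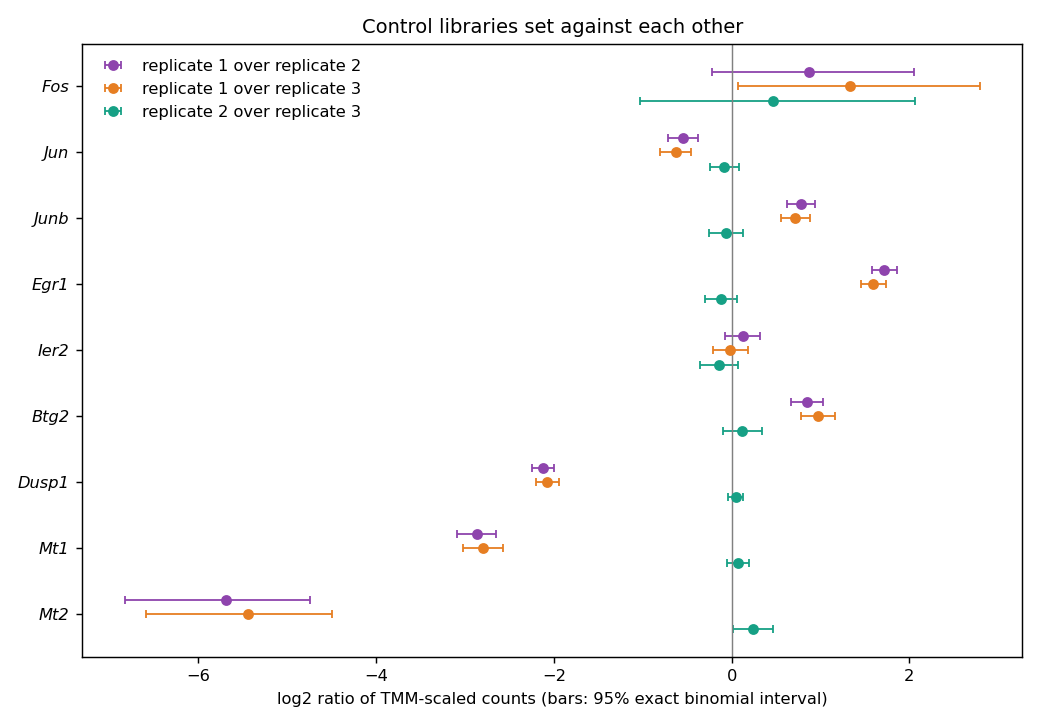
Log2 ratios of scaled counts between the 3 Control libraries (x axis) for 9 members (y axis), with points for the 3 pairs of libraries and bars for 95% exact binomial intervals. Atf3 is left out because 1 library had 0 reads. Ratios that involve replicate 1 reach -5.69 for Mt2 and 1.72 for Egr1, while those of replicate 2 over replicate 3 stay close to 0.

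Gaps of this size were set against those of all genes. Of 9826 genes with a Control mean of at least 5 CPM, 5.2% had a highest-to-lowest ratio of at least 2, against 4 of the 8 members that reached this level (Mt2, Mt1, Dusp1 and Egr1). The ratio of Mt2, 51.5, ranked 1 of 9826, that of Mt1, 7.28, ranked 10, that of Dusp1, 4.34, ranked 30, and that of Egr1, 3.29, ranked 65. Btg2 lay just under the limit with 1.96, and Ier2, with 1.10, was below the median of all genes, 1.26. Control replicate 1 was the highest or the lowest library in 78.5% of all these genes (replicate 2 in 56.6% and replicate 3 in 64.9%), and in 94.1% of the 511 with a ratio of at least 2 (replicate 2 in 47.6% and replicate 3 in 58.3%). At least 2-fold gaps separated replicate 1 from replicate 2 in 2.99% of genes and replicate 2 from replicate 3 in 0.356%. In a chi-square test of the 3 counts against library size, which compares libraries and not conditions, 8 of 10 members differed at an adjusted p under 0.05, as did 53.3% of 14347 genes with at least 15 Control reads. Fos (adjusted p = 0.0775, chi-square) and Ier2 (adjusted p = 0.417) were the exceptions. Without Control replicate 1 both member counts dropped to 0, so the differences among Control libraries rest on that library.

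**Figure D2:**
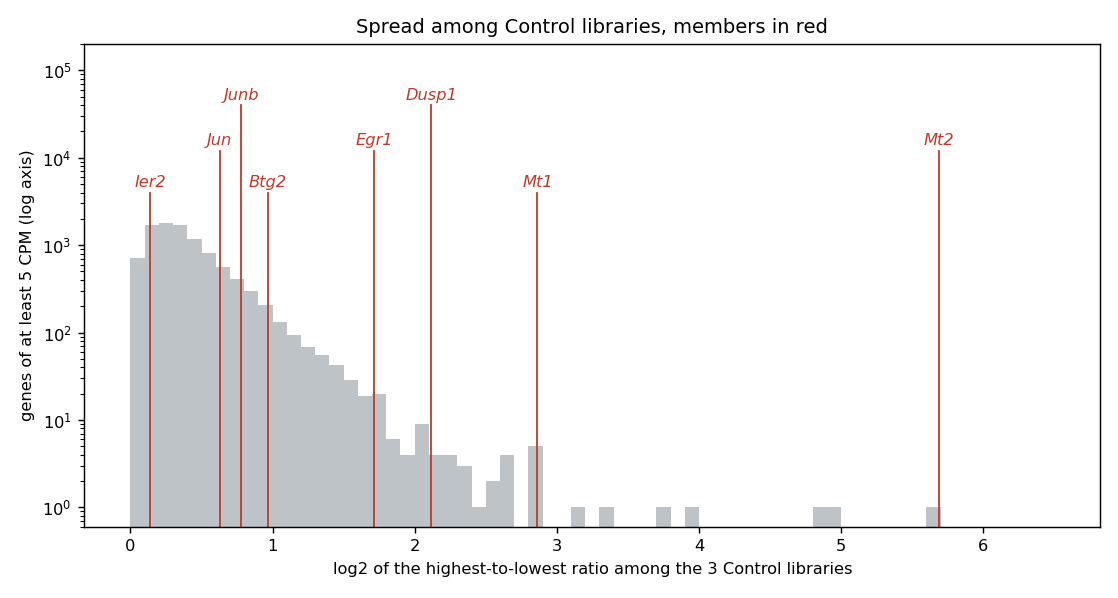
Number of genes (y axis, log scale) by the log2 of the highest-to-lowest ratio among the 3 Control libraries (x axis), for 9826 genes of at least 5 CPM, with 8 members as red lines. Mt2 lies at the far right end with a ratio of 51.5, and Ier2 near the left end with 1.10.

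Most marker lists of other cell types had their highest sum in Control replicate 1. The summed level of 6 endothelial markers was 350.8, 197.2 and 194.9 CPM in Control replicates 1, 2 and 3. Kupffer cell markers (6 genes) summed to 265.8, 205.0 and 204.8 CPM, and stellate cell markers (6 genes) to 309.2, 204.4 and 225.6 CPM. No marker of these 3 lists was at 0 in a Control library. Hepatocyte markers (8 genes) were closer, at 127021, 120657 and 116794 CPM. Cholangiocyte markers (5 genes) summed to 100.4, 78.8 and 83.9 CPM in the same order of libraries. Markers of T cells, B cells and neutrophils (6 genes) summed to 5.27, 3.01 and 4.05 CPM. Erythroid markers (5 genes) went the other way, at 331.1, 368.3 and 360.8 CPM. The part of these shifts in the member differences was not tested.

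Gaps between Control libraries were counted in related genes as well. Of 23 other immediate early genes at 5 CPM or more, 11 had a ratio of at least 2, with replicate 1 highest in 4 and lowest in 7. Of 11 glucocorticoid-responsive genes at that level 6 did, with replicate 1 highest in 2 and lowest in 4. The counts were 0 of 13 for heat shock genes, 1 of 24 for upstream kinases and factors, and 1 of 15 for zinc and copper handling genes. The following examples were chosen after their values were seen. Gadd45g, a growth arrest and stress gene, had 95, 2305 and 1755 reads in Control replicates 1, 2 and 3, and ranked 3 of all 9826 genes. Cebpd, an early acute phase factor, had 35, 179 and 119 reads, Myc had 20, 86 and 55, and the stress gene Ddit4 had 300, 1031 and 983. Cdkn1a, a cell cycle inhibitor, was instead highest in replicate 1, with 2621, 844 and 694 reads. Mtf1, which carries the zinc signal to the metallothionein genes, had 400, 345 and 228 reads, without a gap of the size seen for Mt1 and Mt2.

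The sequences upstream of 4 members are shown. Mt1 and Mt2 hold metal response element letters, and Dusp1 and Btg2 were the only members searched that hold the full cyclic AMP response element. In Control replicate 1, Mt1, Mt2 and Dusp1 were lowest and Btg2 was highest, with a highest-to-lowest ratio of 1.96 among Control libraries. Each line gives 200 bases before the RefSeq start (GRCm38.p6, the build of the reads), at chr8:94178889-94179088 (plus strand) for Mt1, chr8:94172418-94172617 (plus strand) for Mt2, chr17:26508473-26508672 (minus strand) for Dusp1 and chr1:134079156-134079355 (minus strand) for Btg2. Capitals mark metal response element letters (TGCACNC or TGCGCNC, either strand) in Mt1 and Mt2, and the cyclic AMP response element (TGACGTCA) in Dusp1 and Btg2. Another match of Mt2 lies upstream of the bases shown.
Mt1: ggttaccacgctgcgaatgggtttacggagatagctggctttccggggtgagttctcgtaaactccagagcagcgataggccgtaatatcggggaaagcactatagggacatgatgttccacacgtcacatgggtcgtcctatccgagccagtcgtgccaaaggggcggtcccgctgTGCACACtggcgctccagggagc
Mt2: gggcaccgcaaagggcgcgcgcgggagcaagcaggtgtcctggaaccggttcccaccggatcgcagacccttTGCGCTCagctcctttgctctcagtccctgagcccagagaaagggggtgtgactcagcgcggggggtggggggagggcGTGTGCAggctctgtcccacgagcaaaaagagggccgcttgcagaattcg
Dusp1: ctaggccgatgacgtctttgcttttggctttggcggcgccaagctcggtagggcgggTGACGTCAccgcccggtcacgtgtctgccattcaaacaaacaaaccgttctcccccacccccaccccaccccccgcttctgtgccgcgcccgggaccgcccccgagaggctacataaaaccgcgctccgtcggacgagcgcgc
Btg2: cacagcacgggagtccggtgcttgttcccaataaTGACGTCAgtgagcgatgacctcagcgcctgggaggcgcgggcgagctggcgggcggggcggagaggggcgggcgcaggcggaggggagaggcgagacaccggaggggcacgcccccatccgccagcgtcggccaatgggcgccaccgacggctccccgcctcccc

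RefSeq promoter windows matched 8 of the 10 members, all but Egr1 and Ier2, and motifs were sought on both strands in the 250 bases before each start. The letters TGACGTCA, which hold TGACG on both strands, occurred in 2 of 8 members, Dusp1 and Btg2, and in 1.55% of 32851 promoters. These genes share the element but lay on opposite sides in Control replicate 1. TGCACNC occurred in Mt1, Mt2 and Junb and in 10.4% of promoters, and TGCGCNC in Mt2, Atf3, Btg2 and Jun and in 12.5%. The AP-1 letters TGANTCA were found in Mt2 alone of the 8 members (6.75% of promoters), and the EGR letters GCGNGGGCG in Btg2 alone (4.70%). The CArG box that serum response factor binds was found in none of the 8 windows and in 1.47% of promoters. Bases further upstream, bases past the RefSeq start, and the promoters of Egr1 and Ier2 were not searched. TGACG alone, on either strand, occurred in 6 of 8 members (all but Jun and Mt2) and in 17.8% of promoters. A match describes letters and is not a measured site. The starts of transcripts differ between annotations, and for Mt2 the GENCODE gene begins at 94172664, downstream of the RefSeq window shown. The Mt1 window ends at 94179088, past the GENCODE start at 94179082. The Dusp1 window lies inside the GENCODE gene, which starts at 26562128 on the minus strand.

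Set against Control, 3 members fell in the DKO-labelled libraries with edgeR. DESeq2 called 4 lower (Jun in addition), among 4133 lower of 43346 genes. With limma-voom 2 were lower (without Ier2, adjusted p = 0.0682), among 1661 lower of 15561 genes. None passed as higher with any of these tools, or at an unadjusted p under 0.05 with edgeR. Of the 8 members tested, Junb, Egr1 and Ier2 passed an adjusted p of 0.05 as lower (edgeR's quasi-likelihood test, as for all adjusted p below unless a tool is named), while 12.8% of all 15561 tested genes were lower and 31.3% were higher. Among the 9823 tested genes of at least 5 CPM in Control, to which these 8 members belong, 18.9% were lower. The median log2 fold change was -2.70 over the 6 tested immediate early genes, 0.32 over Mt1 and Mt2, and -0.08 over all tested genes. The last value also covers genes under 5 CPM in Control, and no median was computed without them. Fos and Atf3 had too few reads to be tested.

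Junb had 0, 6 and 2 reads in DKO replicates 1, 2 and 3, against 989, 483 and 442 in Control. Its level was 4.16 ± 5.44 CPM in the DKO-labelled libraries and 55.1 ± 17.6 CPM in Control (SD, n = 3 each), with -3.86 ± 0.97 (SE) as log2 ratio of DKO over Control (adjusted p = 0.0102). Every DKO-labelled library lay below every Control library. Egr1, a zinc finger factor, had 4, 8 and 20 reads in DKO replicates 1 to 3, against 2013, 513 and 489 in Control. At 13.5 ± 8.28 CPM in the DKO-labelled libraries and 83.7 ± 60.6 CPM in Control the groups did not overlap, and the log2 ratio was -2.62 ± 0.78 (SE, adjusted p = 0.0219). Ier2 had 0, 8 and 3 reads in DKO replicates 1 to 3, against 487, 374 and 361 in Control. Its levels were 5.67 ± 7.19 CPM in the DKO-labelled libraries and 36.3 ± 1.89 CPM in Control, also without overlap, and its log2 ratio was -2.78 ± 0.97 (SE, adjusted p = 0.0418).

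Some cell type marker lists separated the groups and others did not. The hepatocyte markers (8 genes) summed to 679.8, 39220 and 6888 CPM in DKO replicates 1, 2 and 3, against 116794 to 127021 CPM in Control. Markers of T cells, B cells and neutrophils (6 genes) summed to 43.3, 67.1 and 89.8 CPM in those libraries, with 4, 3 and 1 of them at 0 reads, against 3.01 to 5.27 CPM in Control. Kupffer cell markers summed to 11.5, 99.8 and 116.8 CPM, with 3 of 6 at 0 in DKO replicate 1, against 204.8 to 265.8 CPM in Control. Cholangiocyte markers (5 genes) summed to 128.6, 168.5 and 227.2 CPM, against 78.8 to 100.4 CPM in Control. Endothelial markers (299.2, 206.4 and 233.7 CPM, against 194.9 to 350.8 in Control) overlapped between the groups. So did stellate cell markers (196.1, 137.6 and 234.8 CPM, against 204.4 to 309.2 in Control) and erythroid markers (68.7, 531.4 and 291.0 CPM, against 331.1 to 368.3 in Control). Their part in the member differences was not tested.

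The 3 calls were tested again with single libraries left out. Without Control replicate 1 no member was called lower by edgeR (1, Junb, at an unadjusted p under 0.05), with an adjusted p of 0.0658 for Junb, 0.137 for Egr1 and 0.142 for Ier2, while the share of lower genes dropped to 4.05%. The log2 ratio was then -3.45 for Junb, -1.77 for Egr1 and -2.65 for Ier2, so that of Egr1 moved most. Ier2 likewise missed the threshold when Control replicate 2 was left out (adjusted p = 0.118), Control replicate 3 (0.131) or DKO replicate 3 (0.0796). Genes called lower numbered 567 of 14002 without Control replicate 1, and likewise 601 and 580 of 14052 without Control replicate 2 or 3. Without DKO replicate 3 they numbered 1899 of 15836. Leaving out DKO replicate 2 moved the count the other way, to 6 members lower, with 26.7% of all genes lower.

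Jun, Btg2 and Dusp1 did not pass the threshold with all libraries in the edgeR test. Jun had 0, 12 and 1 reads in DKO replicates 1 to 3, against 531, 649 and 603 in Control, and its log2 ratio was -3.04 ± 1.11 (SE, adjusted p = 0.0505). Btg2 had 0, 17 and 2 reads in DKO replicates 1 to 3, against 818, 380 and 307 in Control, a log2 ratio of -2.14 ± 1.12 (SE, adjusted p = 0.141). Neither gene overlapped between the groups in CPM. Every DKO-labelled library lay below every Control library for 5 of the 8 tested members, and for 36.4% of all tested genes. Dusp1 had 9, 60 and 4 reads in DKO replicates 1 to 3, against 659, 2395 and 2035 in Control, and DKO replicate 2, at 103.2 CPM, lay above Control replicate 1, at 50.3 CPM. Its log2 ratio was -2.03 ± 1.16 (SE, adjusted p = 0.168). Without DKO replicate 2 all 3 passed as lower (adjusted p of 0.0026 for Jun, 0.00438 for Btg2 and 0.00979 for Dusp1), and Jun also passed without DKO replicate 1 (0.0278). With all libraries Jun passed with DESeq2 (adjusted p = 0.0118) and, in edgeR, with DESeq2 size factors (0.0172), upper-quartile scaling (0.0312), a filter of 1 CPM (0.0442) or without mitochondrial genes (0.0351). Without a filter on low counts Jun (0.000115), Btg2 (0.00228) and Dusp1 (0.00868) all passed.

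Mt1 and Mt2 did not pass in either direction. Mt1 had 14, 32 and 111 reads in DKO replicates 1 to 3, or 17.8, 55.0 and 120.1 CPM, against 15.04, 109.5 and 104.2 CPM in Control. The groups overlapped over nearly their whole range, and the log2 ratio was -0.24 ± 0.90 (SE, adjusted p = 0.834). Mt2 had 10, 10 and 84 reads, or 12.7, 17.2 and 90.9 CPM, in the DKO-labelled libraries, against 0.687, 35.4 and 29.9 CPM in Control. Its log2 ratio was 0.89 ± 1.18 (SE, adjusted p = 0.544), and it turned to -0.21 without DKO replicate 3. In TMM-scaled CPM the highest value of both genes was that of DKO replicate 3, and the lowest that of Control replicate 1. For Mt1 the place of DKO replicate 3 at the top depends on this scaling. Its effective size was 924322 for 1491237 gene reads, against 10971800 for 13953699 in Control replicate 2.

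Fos had no read in any DKO-labelled library, against 24, 11 and 7 reads in Control. Zero reads allow up to 1.31 CPM over the group (3 reads), and the Control level over the group was 1.25 CPM, so a difference was not detectable at this depth. Atf3, a stress-induced factor of the ATF family, had 0, 0 and 4 reads in DKO replicates 1 to 3, against 16, 0 and 4 in Control.

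**Figure D3:**
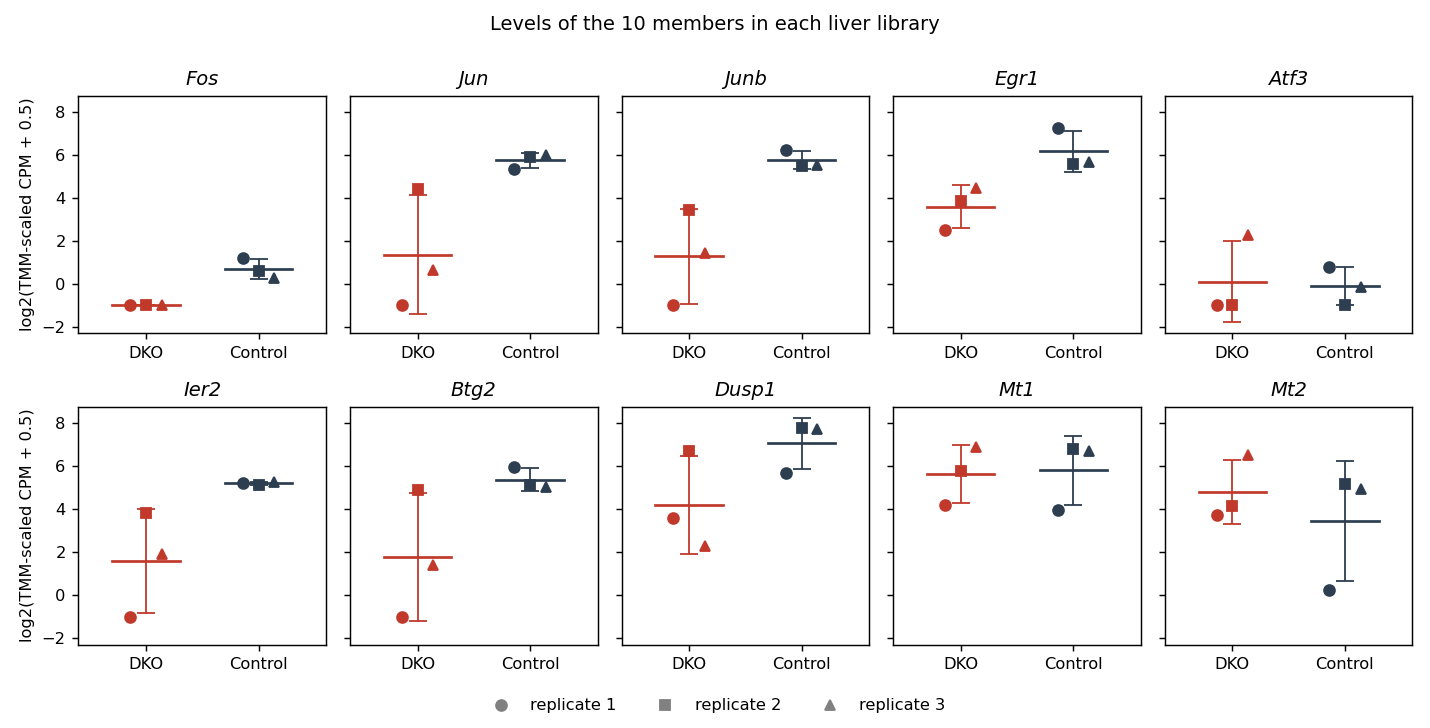
Level of each of the 10 members in every library, as log2(TMM-scaled CPM + 0.5) on the y axis, with DKO-labelled libraries left of Control in each panel. Symbols mark replicates, horizontal lines the mean and bars the SD of the log2 values (n = 3). Junb, Egr1 and Ier2 do not overlap between groups, while Mt1 and Mt2 do, with Control replicate 1 lowest.

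Per kilobase of exon, the order of the member means differed between the groups. In the DKO-labelled libraries Mt2, at 68.5 ± 74.6 CPM per kb, and Mt1, at 51.6 ± 41.5, led the order, ahead of Dusp1 at 11.98 ± 16.7 (SD, n = 3). Btg2 (3.82 ± 5.94 CPM per kb), Ier2 (3.72 ± 4.73), Egr1 (3.01 ± 1.85), Jun (2.27 ± 3.64) and Junb (1.81 ± 2.36) followed, and each gap between neighbours in this order was smaller than the larger of their SDs. Atf3 was at 0.670 ± 1.16 and Fos at 0. In Control the order was Mt1 (61.2 ± 42.6 CPM per kb), Dusp1 (48.3 ± 28.7), Mt2 (37.4 ± 31.7), Junb (24.0 ± 7.67), Ier2 (23.8 ± 1.24), Egr1 (18.7 ± 13.5), Jun (17.0 ± 3.73) and Btg2 (15.7 ± 6.16), and among these 8 each gap between neighbours was again smaller than the larger of their SDs. Fos and Atf3 stood far below, at 0.505 ± 0.244 and 0.253 ± 0.288 CPM per kb in Control. The length used is that of all annotated exons of a gene together, 1246 bases for Mt1 and 588 for Mt2. Before division by length the mean of Mt1 (64.3 CPM) lay above that of Mt2 (40.3 CPM) in the DKO-labelled libraries.

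The comparison with Control also depended on what else the DKO-labelled libraries held. Reads in genes that are silent in Control liver gave an estimate of background per kilobase, and 163 abundant liver genes gave the share of liver transcripts in each DKO-labelled library. From these, the reads expected for a member at the proportions of a given Control library were computed. In DKO replicate 2, the DKO-labelled library with the most liver transcripts, Dusp1 had 60 reads (95% exact Poisson interval 45.8 to 77.2). The expectation was 15.2 from Control replicate 1 and 48.0 and 46.7 from replicates 2 and 3. Egr1 had 8 reads (3.45 to 15.8), against 39.0, 15.1 and 15.9 expected, in the same order of Control libraries. Mt1 had 32 reads (21.9 to 45.2), against 4.88, 23.5 and 22.5, and Mt2 had 10 (4.80 to 18.4), against 0.902, 7.83 and 6.75. For Dusp1, Mt1 and Mt2 the expectations from Control replicates 2 and 3 lay inside the counting interval and that from Control replicate 1 outside it. For Egr1 only that from replicate 2 lay inside. Btg2 differed from this pattern, with 17 reads (9.90 to 27.2) and expectations of 17.5, 10.9 and 10.4, all inside the interval. So did Jun, with 12 reads (6.20 to 21.0) against 12.9, 15.9 and 16.6, and Ier2, with 8 (3.45 to 15.8) against 10.3, 9.03 and 9.73, again all inside. Junb had 6 reads (2.20 to 13.1), against 19.7, 12.1 and 12.5, and only the expectation from Control replicate 1 lay outside the interval.

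DKO replicate 3 held more metallothionein reads than liver transcripts and background together would give. Mt1 had 111 reads (91.3 to 134), against an expectation of at most 9.99, of which 4.12 were background. Mt2 had 84 reads (67.0 to 104), against at most 3.82, of which 1.92 were background. Of 2729 silent genes with a like expected background none had as many reads as Mt1, and of 1745 such genes 1 had as many as Mt2. Summed, the metallothionein genes had 195 reads, against 6.96, 13.8 and 13.3 expected from Control replicates 1, 2 and 3. The 8 immediate early genes had 36 reads together in that library, against 97.6, 96.5 and 96.8 expected. Of these, 73.0 were background, so the observed sum lay below the background estimate alone. That estimate is a mean, and many silent genes of a like background lay below it too. For Junb, with 2 reads and a background of 7.31, 48.8% of such genes had at least as many reads. For Jun, with 1 read and a background of 10.4, 73.0% did.

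In DKO replicate 1, which held almost no liver transcripts, 6 of 10 members had no read. Its 24 metallothionein reads, 14 of Mt1 and 10 of Mt2, compared with 3.22, 3.56 and 3.53 expected, and its 13 immediate early reads with 38.9 expected from each Control library. Background made up 37.7 of these 38.9 reads, so the observed sum again lay below the background estimate. As many reads as for Mt1 were found in 4.13% of silent genes with a like background, and as many as for Mt2 in 2.27%. Other silent genes thus also exceeded their expected background in this library.

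**Figure D4:**
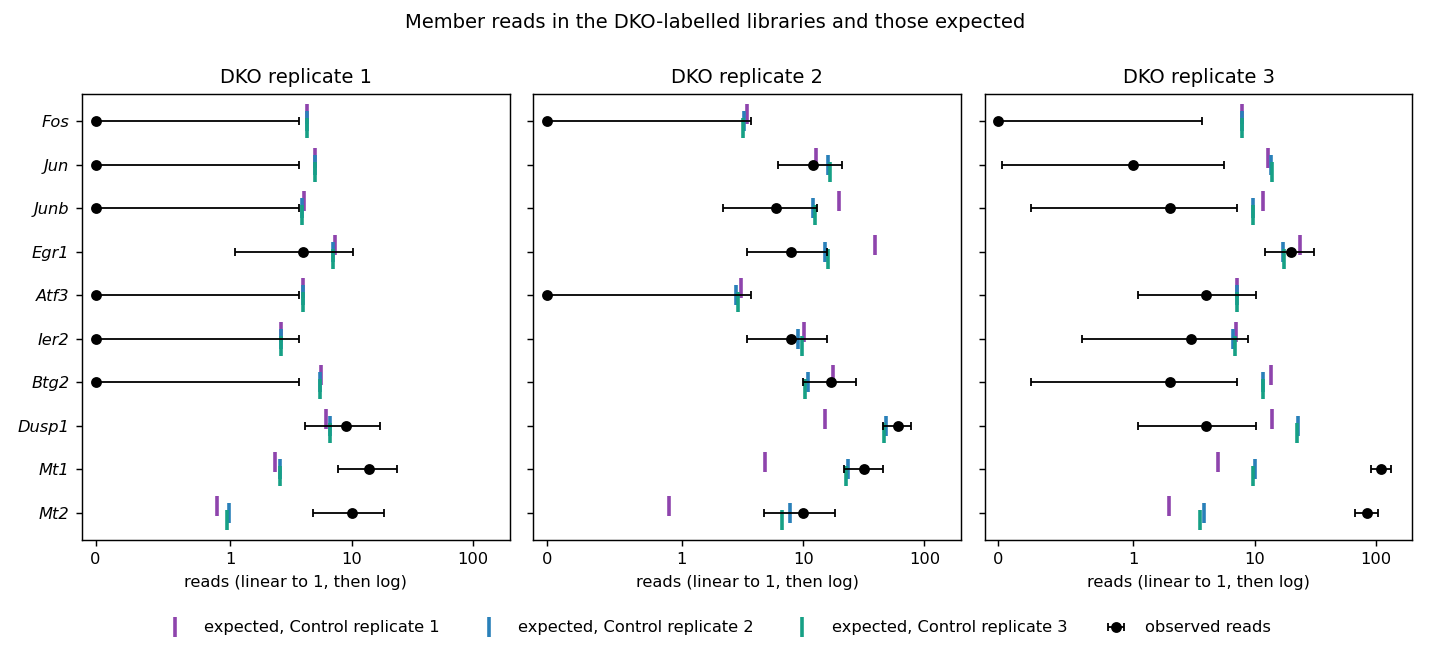
Reads of the 10 members (y axis) in each DKO-labelled library, on an axis that is linear to 1 and logarithmic above. Black points are observed reads with 95% exact Poisson intervals, and coloured ticks the reads expected from background plus liver transcripts at the proportions of each Control library. In DKO replicate 3 Mt1 and Mt2, at 111 and 84 reads, lie right of all ticks.

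Scaling on the abundant liver genes, which asks for each member's level relative to them, shifted the median of all genes by over 4 units, to 4.68 on the log2 scale. On it Mt1 (log2 fold change 4.35, adjusted p = 0.0433) and Mt2 (5.65, adjusted p = 0.0216) passed as higher, as did 62.5% of all genes. When background reads were also subtracted, the median of all genes was 2.02, Mt2 stood at 6.16 (adjusted p = 0.0476) and Mt1 at 4.81 (adjusted p = 0.0734). Egr1 turned to 1.93 on this scale with background reads kept and was at -1.04 with them subtracted, without a call in either case. Junb, at -0.97 and -2.40, and Jun, at -0.51 and -1.08, kept their sign, and no immediate early gene was called. With background reads subtracted under TMM scaling, Egr1 was the 1 member called lower (log2 ratio -4.29, adjusted p = 0.0458), and 20.8% of all genes were lower. Junb (-4.67, adjusted p = 0.0571), Ier2 (-2.96, 0.210) and Jun (-3.07, 0.220) had log2 ratios at least as far below 0 as before the subtraction, without a call. The median of all genes moved down as well, from -0.08 before the subtraction to -1.29 after it.

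**Figure D5:**
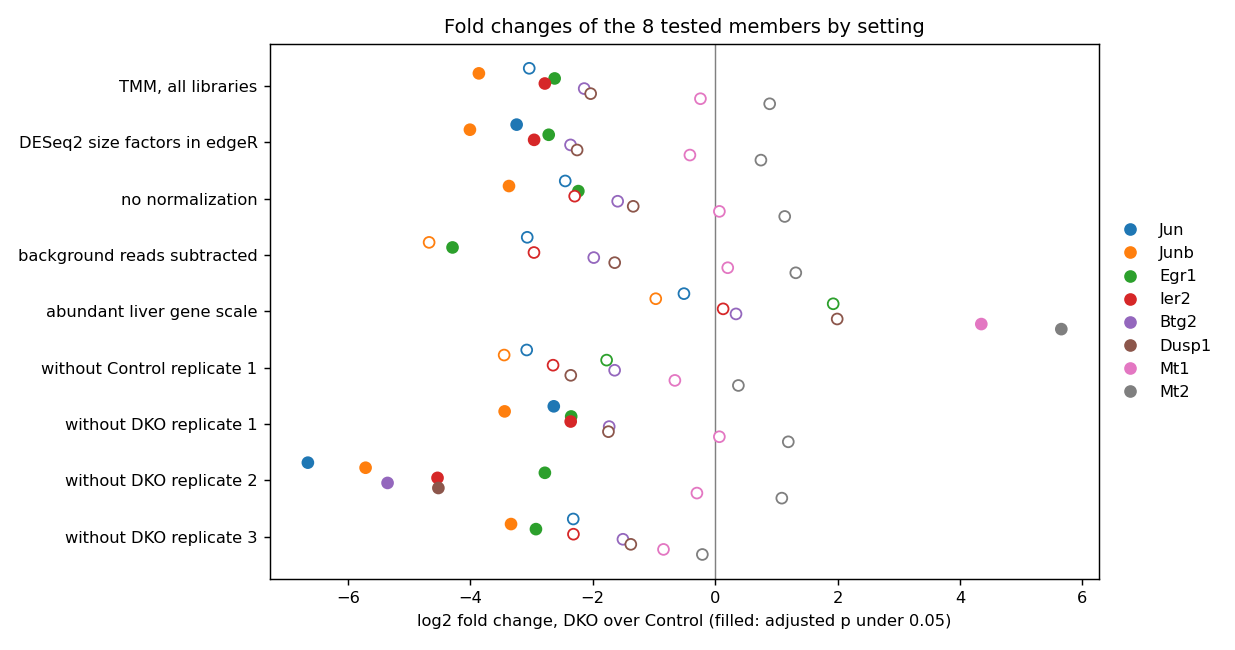
Log2 fold changes of DKO over Control (x axis) for the 8 tested members under 9 settings (y axis), with filled points for an adjusted p under 0.05. Junb, Egr1 and Ier2 are filled with TMM scaling and all libraries, none without Control replicate 1, and only Mt1 and Mt2 on the abundant liver gene scale.

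The ratio of Mt1 to Mt2 reads also differed between libraries. It was 1.40 (95% exact binomial interval 0.578 to 3.52), 3.20 (1.53 to 7.30) and 1.32 (0.986 to 1.78) in DKO replicates 1, 2 and 3. In Control replicates 1, 2 and 3 it was 21.9 (11.3 to 48.6), 3.10 (2.76 to 3.48) and 3.48 (3.05 to 3.98). Control replicate 1 lay above all other libraries, DKO replicate 2 lay with Control replicates 2 and 3, and the interval of DKO replicate 3 lay below theirs. This ratio within a library does not depend on scaling. Mt2 shares 212 exonic bases with a gene on the opposite strand (Gm45774), Junb shares 173 with Prdx2 and Jun 232 with Junos, and with the strand setting unknown such reads cannot be told apart or may have been left out as ambiguous.

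Related genes outside the members were read against the 31.3% of all tested genes called higher and the 12.8% called lower. All 5 lists had medians below that of all tested genes. That median also covers genes under 5 CPM in Control, where few of the list members lie. Among tested genes of at least 5 CPM 18.9% were lower, and their median was not computed. Among 26 tested immediate early genes that are not members, 4 rose and 2 fell, with a median log2 fold change of -0.95. The 3 with the smallest adjusted p all rose. Egr2 had 42, 10 and 76 reads in DKO replicates 1 to 3, against 1, 0 and 0 in Control, a ratio of 1883 (counting interval 332 to 74929), with 6.72, 4.95 and 12.3 reads expected there from background. Klf6, a zinc finger factor, had 47, 44 and 59 reads, against 113, 34 and 41 in Control (log2 ratio 3.63, SE 0.64, adjusted p = 0.00143). Nr4a2, an orphan nuclear receptor, had 23, 12 and 13 reads, against 4, 1 and 9 in Control (5.55, SE 0.97, adjusted p = 0.00147), with 7.37, 4.77 and 12.1 expected from background. At 0.0911 to 0.935 CPM in Control, Nr4a2 reached the test only through the DKO-labelled libraries, as Egr2 did, and with background reads subtracted Nr4a2 had too few reads to be tested.

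Of 24 tested upstream kinases and factors 1 rose and 7 fell (median -1.51). Map2k4, a kinase of the JNK pathway, had 3, 6 and 4 reads in DKO replicates 1 to 3, against 656, 534 and 417 in Control (log2 ratio -2.99, SE 0.66, adjusted p = 0.00471). Its expected background in these DKO-labelled libraries was 7.39, 5.25 and 12.1 reads. Elk3, a partner of serum response factor, had 85, 20 and 56 reads in DKO replicates 1 to 3, against 202, 80 and 59 in Control, and rose with a log2 ratio of 2.82 ± 0.68 (SE, adjusted p = 0.00823), but missed the threshold without Control replicate 2 (adjusted p = 0.0536) or 3 (0.0558).

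Heat shock genes, another mark of handling, had 1 of 15 tested genes higher and 4 lower (median -1.99). Hspa1b, an inducible chaperone whose near-identical copy Hspa1a makes its counts uncertain, had 0, 1 and 0 reads in DKO replicates 1 to 3, against 179, 175 and 169 in Control (log2 ratio -5.06, SE 1.17, adjusted p = 0.00635). Dnajb1, its co-chaperone, had 1, 2 and 7 reads, against 375, 357 and 272 in Control (-2.81, SE 0.75, adjusted p = 0.013). Hsf1, which switches heat shock genes on, had 1, 0 and 5 reads, against 298, 205 and 223 in Control. It fell by 3.12 on the log2 scale (SE 0.92, adjusted p = 0.0213). Background alone gave an expectation of 13.0, 9.23 and 23.5 reads for Hsf1 in DKO replicates 1 to 3. Hspa1b and Dnajb1 likewise lay below their expected background in each DKO-labelled library. The calls of Dnajb1 and Hsf1 were lost without any 1 of the Control libraries (adjusted p of 0.0563 to 0.0657 and 0.072 to 0.0884), while their log2 ratios stayed between -2.76 and -2.86 and between -3.04 and -3.25.

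Among zinc and copper handling genes 1 of 16 tested was called, and it fell (median of the list -0.79). It was Slc39a7, which releases zinc from the secretory pathway into the cytosol, with no read in the DKO-labelled libraries, against 101, 102 and 107 in Control, at least 7.03-fold lower against a floor of 3 reads over the group. On the abundant liver gene scale its Control level lay under that floor, and without Control replicate 2 or 3 it had too few reads to be tested. Mt3 and Mt4, metallothioneins of brain and squamous epithelium, had 0 reads in all 6 libraries.

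Of 12 glucocorticoid-responsive genes 2 rose and 1 fell (median -2.12). Per1, a clock gene, had 2, 8 and 1 reads in DKO replicates 1 to 3, against 340, 422 and 417 in Control (log2 ratio -2.75, SE 0.88, adjusted p = 0.0306), and lost its call without Control replicate 1, 2 or 3 (0.0855, 0.105 and 0.12). Its expected background in DKO replicates 1 to 3 was 9.28, 8.17 and 17.9 reads. Zbtb16, a transcriptional repressor, had 52, 65 and 140 reads in DKO replicates 1 to 3, against 425, 204 and 152 in Control, and rose with a log2 ratio of 2.30 ± 0.64 (SE, adjusted p = 0.0156), a call lost without Control replicate 2 (0.0977) or 3 (0.103). Lcn2, an acute phase protein, had 3, 7 and 62 reads, against 56, 40 and 54 in Control (2.63, SE 0.96, adjusted p = 0.0496). Its call was lost without DKO replicate 3 (0.221) or without Control replicate 1, 2 or 3 (0.154, 0.165 and 0.135).

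The genes whose profiles over the 6 libraries were most like the median profile of the immediate early members were Rars, Nacc1 and Nars, at a root mean square distance of 0.109, 0.110 and 0.123 log2 units among 9200 candidates of at least 5 CPM in Control. Rars had 1, 12 and 4 reads in DKO replicates 1 to 3, against 696, 564 and 488 in Control. For Mt1 and Mt2 they were Nmnat3, Arl4d and Xlr3a, at the larger distances of 0.893, 0.895 and 0.924. Arl4d had 29, 53 and 90 reads in DKO replicates 1 to 3, against 423, 2209 and 1906 in Control, so that it too was low in Control replicate 1.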

How the data were processed

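Gene counts came from 6 liver libraries. Each deposited file lists integer counts by Ensembl ID. The submitters' processing notes name STAR, HTSeq and mm10. Their versions, the strand setting and the annotation are not given in the sources used. The 5 rows that name no gene held 95.3% to 97.3% of reads in the DKO-labelled libraries and 65.1% to 66.7% in Control, and stayed out of all sizes and tests.

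The main test was edgeR 4.0.16 in R 4.3.3 (quasi-likelihood, robust, TMM, filterByExpr by group, no covariate, Benjamini-Hochberg over all genes tested, threshold 0.05, two-sided). DESeq2 1.42.0 and limma 3.58.1 (voom) were alternatives. Both steps across genes were tested on simulated counts. Control libraries were compared with a chi-square test (at least 15 reads) and exact binomial intervals (SciPy 1.17.1). Exonic lengths, GC content and positions came from GENCODE M21. Background per kilobase was taken over 8600 silent protein-coding genes (10 Control reads or fewer), in 10 bins of GC content. The abundant scale used 163 nuclear coding genes above 30000 Control reads. Silent genes of a like background lay within 1.5 times the member's expected background.

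Members and lists were chosen with earlier results of these data known. Named are the members, up to 3 called genes per related list with the smallest adjusted p, and the 3 most alike genes per member group, except where stated. A gene that this rule names among the upstream kinases and factors is not reported here. Some listed symbols were matched by their current names. No pair of libraries held identical counts.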

Additional observations from a re-analysis of the deposited data

Results flagged for a closer look

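Reads that aligned outside genes, which no comparison above uses, made up 66.7% ± 6.44 of all reads in the DKO-labelled libraries and 38.9% ± 1.51 in Control (SD, n = 3 each), so that this signal was above the Control level in every DKO-labelled library.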

How the results depend on the processing

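With all libraries edgeR called 6863 genes, 3 members (all lower) and 23 related genes. DESeq2 called 12963 genes and 48 related genes. The fit without a filter called 16127 and 54, with 6 members lower and 4650 of 30209 genes lower. A threshold of 0.01 gave 4569 and 9, with 0 members lower (4 at an unadjusted p under 0.05) and 511 of 15561 genes lower. DESeq2 size factors gave 36 related genes. DKO replicate 1, 2 or 3 alone, each assumed to vary like the Control libraries, gave 63, 42 and 68 related genes, and replicates 1 and 3 alone 10811 and 11637 genes. Leaving out 1 library gave 4710 to 9728 genes, 0 to 6 members lower and 7 to 49 related genes. The cause was not tested. On the abundant liver gene scale 2 members were higher, 0 lower and 38 related genes called, and log2 ratios turned to 1.93 for Egr1, 0.13 for Ier2, 0.34 for Btg2, 1.99 for Dusp1, 4.35 for Mt1, 1.43 for Map2k4, 1.20 for Dnajb1, 0.99 for Hsf1 and 0.75 for Per1, as this scale moves all genes. With background also subtracted, an alternative chosen after seeing the data, 1 member was higher and 0 lower, and 4720 of 13332 genes were higher. The log2 ratios were then 1.16 for Dusp1 and 4.81 for Mt1. Background subtraction alone left 1 member lower. Mt1 turned to 0.069 without normalization, 0.21 with background subtracted and 0.48 with DKO replicate 3 alone, and lay between -0.84 and 0.11 with 1 library left out. Mt2 turned to -0.72 and -0.34 with DKO replicate 1 or 2 alone, and lay between -0.21 and 1.40 with 1 library left out. Lcn2 turned to -0.18 with DKO replicate 1 alone. Among Control libraries, 7 of 8 members reached a ratio of 1.5. The lowest of these, Jun at 1.55, ranked 1808 of 9826 genes, so many other genes reached it too. When 1 library was left out, 0 to 4 members reached a ratio of 2. At least 2-fold gaps between pairs of Control libraries were found in 0.356% to 3.21% of those 9826 genes.

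With the replicate number as a block, 6322 genes (2179 of 15561 lower) and 5 members (lower) were called. Deviations of same-numbered libraries correlated at 0.12, 0.08 and -0.02. Control replicates 1 and 2 correlated best with the DKO-labelled library of the same number, and Control replicate 3 with DKO replicate 2 (0.097). Correlations this small, from shallow libraries, cannot show whether the numbers pair the libraries. The few reads of the DKO-labelled libraries limit every comparison with them.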
